A study of Mus musculus with 5 samples.

Results

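The transcription factors that commit blood progenitors to the neutrophil and monocyte lineages were followed in RNA from sorted cells that the labels call PMN-MDSCs, the polymorphonuclear kind of myeloid-derived suppressor cell. The set was chosen by gene symbol and holds 8 of the 55250 usable rows of the deposited expression table: the CCAAT/enhancer-binding protein genes Cebpa, Cebpb, Cebpd and Cebpe, the ETS factor gene Spi1 (which encodes PU.1), and Gfi1, Irf8 and Runx1. PMN-MDSCs are cells of the neutrophil lineage that accumulate in tumor-bearing hosts and restrain T cells. All libraries came from wild-type mice: 3 from lung (replicates 1, 2 and 3) and 2 from tumor (replicates 2 and 3), each with a stated 20000000 paired reads. At least 2000000 sorted cells were used for each RNA sample, per the series' design text. The sources used here do not give sort markers, strain, age or tumor model, nor say that each library came from its own animal. The spread behind the p-values is that among these libraries and could be technical.

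C/EBP alpha and PU.1 open the granulocyte and monocyte program in progenitors, and RUNX1 acts upstream of PU.1. The balance between GFI1, which favors neutrophils, and IRF8, which favors monocytes and dendritic cells, is known to set which of the branches a progenitor takes. C/EBP epsilon then drives the late granule genes of maturing neutrophils. C/EBP beta and C/EBP delta are induced by inflammatory cytokines, and C/EBP beta takes over in emergency granulopoiesis. Several of these factors are also made outside the myeloid lineage: RUNX1 and C/EBP beta in epithelia, IRF8 and PU.1 in B cells.

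The tumor libraries held fewer leukocyte and more epithelial transcripts than the lung libraries. Expression is in TPM, a length-corrected share of transcripts that sums to 1000000 in each library and keeps no read depth. The summed level of 24 pan-leukocyte markers was 17355 to 18192 TPM in lung and 882 and 2490.5 TPM in tumor, and all 24 were lower in tumor. The 14 neutrophil markers reached sums of 38737 to 59564 TPM in lung but only 1206 and 4141 TPM in tumor, and all 14 were lower. The 12 epithelial markers went the other way, with sums of 58.2 to 119 TPM in lung and of 6616 and 6641 TPM in tumor, and 11 were higher. Of 12 monocyte and macrophage markers 6 were higher and 4 lower, with sums of 1125 to 1267 TPM in lung and 1189 and 2781 TPM in tumor. Markers of B cells (148 to 373 TPM in lung, 2.71 and 7.56 TPM in tumor), of endothelium (204 to 368 TPM and 18.8 and 34.3 TPM) and of dendritic cells (16.6 to 32.9 TPM and 5.04 and 6.39 TPM) had lower sums in tumor. T and NK cell markers were at 10.2 to 12.8 TPM in all lung libraries and 3.86 and 2.82 TPM in those from tumor. Fibroblast markers had sums of 16.8 to 23.2 TPM for lung and of 1196 and 218 TPM for tumor, and erythroid and megakaryocyte markers 199 to 623 TPM against 245 and 223 TPM. None of these markers was at 0 in all lung libraries. How much of any difference below comes from the makeup of the sorted cells was not tested, and fewer cells of a type and less RNA per cell cannot be told apart in bulk RNA.

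The 8 genes lie on 6 chromosomes of GRCm38, by the GENCODE M21 annotation. Cebpa is on chromosome 7 (35119293 to 35121928, plus strand), Cebpb on chromosome 2 (167688915 to 167690418, plus strand) and Cebpd on chromosome 16 (15887286 to 15891031, plus strand). Cebpe is on chromosome 14 (54710360 to 54712174, minus strand) and Spi1 on chromosome 2 (91082390 to 91115756, plus strand). Gfi1 is on chromosome 5 (107716657 to 107726036, minus strand), Irf8 on chromosome 8 (120736358 to 120756694, plus strand) and Runx1 on chromosome 16 (92601466 to 92826149, minus strand). Other annotated genes overlap all of them except Cebpe and Spi1. Cebpa overlaps Gm45091, Cebpb overlaps Tmem189 and Cebpd overlaps Spidr, all on the opposite strand. Gfi1 overlaps A430072P03Rik and Runx1 overlaps Gm26626, also on the opposite strand, and Irf8 overlaps Gm20388 on its own strand. The sources used here do not say whether strand was used, so reads in any of these overlaps cannot be assigned with certainty.

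RefSeq promoter windows of GRCm38.p6 (250 bases before to 50 after a transcript start) were matched for 5 of the 8 genes, in 8 windows. The 250 bases upstream of the start are shown, 5′ to 3′, for 2 genes that were lower in tumor (Cebpb and Cebpa) and 2 that did not pass the test (Irf8 and the distal start of Runx1), so that the control regions can be set beside the values. Capitals mark the TATA sequence TATAAA found 20 to 40 bases upstream of the start.
Cebpb, chr2:167688665-167688914, plus strand: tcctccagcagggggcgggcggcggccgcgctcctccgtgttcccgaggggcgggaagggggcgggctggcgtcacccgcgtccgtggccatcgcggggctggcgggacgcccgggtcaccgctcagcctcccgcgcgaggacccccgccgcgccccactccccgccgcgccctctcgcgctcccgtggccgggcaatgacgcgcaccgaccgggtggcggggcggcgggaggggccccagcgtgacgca
Cebpa, chr7:35119043-35119292, plus strand: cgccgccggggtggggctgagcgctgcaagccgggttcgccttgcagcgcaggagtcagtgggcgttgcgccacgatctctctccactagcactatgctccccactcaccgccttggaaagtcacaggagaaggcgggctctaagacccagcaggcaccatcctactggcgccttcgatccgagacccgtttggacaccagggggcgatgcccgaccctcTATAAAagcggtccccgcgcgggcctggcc
Irf8, chr8:120736108-120736357, plus strand: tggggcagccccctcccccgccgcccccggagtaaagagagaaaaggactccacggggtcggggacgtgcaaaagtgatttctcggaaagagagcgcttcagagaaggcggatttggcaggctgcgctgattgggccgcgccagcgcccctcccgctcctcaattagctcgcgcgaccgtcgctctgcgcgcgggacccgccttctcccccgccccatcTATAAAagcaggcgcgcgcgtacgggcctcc
Runx1, chr16:92826075-92826324, minus strand: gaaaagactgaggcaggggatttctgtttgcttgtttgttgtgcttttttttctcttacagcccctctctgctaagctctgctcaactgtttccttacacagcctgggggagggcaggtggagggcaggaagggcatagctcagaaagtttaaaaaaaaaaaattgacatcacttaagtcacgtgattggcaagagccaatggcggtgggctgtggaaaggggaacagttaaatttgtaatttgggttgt
TATAAA in that position was found in Cebpa (30 bases upstream) and the first Irf8 window (31 bases upstream), 2 of the 8 windows, against 1.99% of all 32851 windows. This search was added after the sequences had been seen. The Cebpb window was 80.7% G and C and the distal Runx1 window 45.0%, where the median of all windows was 52.7%.

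Motifs of the factors themselves were searched on both strands of the 300-base windows. The C/EBP core TTGCNNAA was found in 1 of the 8 windows, the upstream one of Gfi1 (143 bases before the start), and in 10.8% of all windows. The RUNX core TGTGGT was found in the distal Runx1 window only, as 2 matches on the opposite strand at bases 29 and 37 of the transcript, chr16:92826033-92826046, minus strand: ACCACAgaACCACA, where capitals mark the matches. It was in 16.8% of all windows. GAGGAAGT (PU.1), AAATCAC followed by any base and GC (GFI1), a pair of GAAA runs split by 2 bases of any kind (IRF), and GGAA with GAAA after 2 such bases (the composite of ETS and IRF factors, which can overlap the IRF motif) were in none of the 8 windows and in 3.20%, 0.201%, 3.44% and 2.72% of all windows. These matches describe letters only.

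Of the 7 factor genes that reached a mean of 1 TPM and were tested, 5 were lower in tumor, none was higher, and 2 did not pass. A gene counted as higher or lower when its adjusted p was below 0.05 and its fold difference 1.5 or more, by limma with Benjamini-Hochberg adjustment over all 16387 genes tested, on log2(TPM + 1). By the same rule 27.0% of all genes tested were lower and 31.6% higher. The median difference, tumor minus lung, was -2.53 for the 7 genes and 0.02 for all genes tested. Both tumor values lay below all lung values for 6 of the 8 genes, as they did for 35.7% of all genes tested, and 39.9% lay above. The plot of the 8 genes by library shows that only Irf8 and Runx1 overlapped between the tissues.

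**Figure D1:**
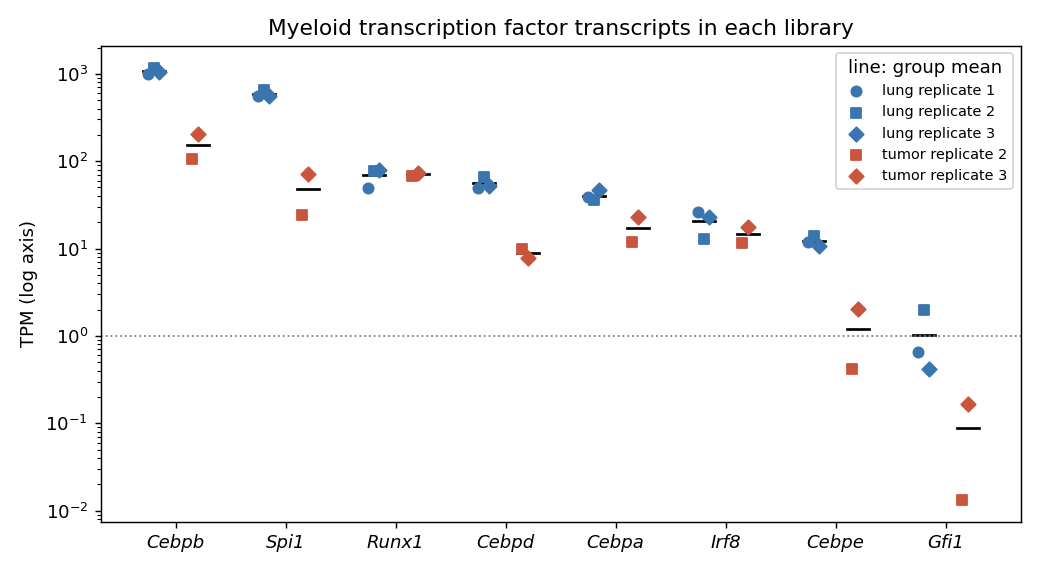
TPM of the 8 factor genes in each library on a log axis, lung in blue and tumor in red, with a marker shape for each replicate number, a black line at each group mean and a dotted line at the 1 TPM filter. Lung and tumor values are apart for 6 genes and overlap for Irf8 and Runx1.

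Cebpb, the inflammatory C/EBP gene, was the most abundant of the 8 in every library. It was at 986, 1179 and 1045 TPM in lung and at 105 and 203 TPM in tumor. Both tumor libraries were thus far below every lung library. The means were 1069.9 ± 98.8 TPM (SD, n = 3) and 154 ± 69.6 TPM (SD, n = 2), 6.93-fold lower in tumor, with a difference of -2.86 ± 0.31 (log2(TPM + 1), SE, limma adjusted p = 0.00198). In lung it ranked 93rd to 107th among all rows by TPM, and in tumor 1026th and 484th.

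Cebpd, the other cytokine-induced member, was at 49.4, 65.7 and 52.0 TPM in lung and at 9.92 and 7.71 TPM in tumor. It is the only one of the 8 whose lower tumor value was in replicate 3. The fall was 6.32-fold in mean TPM, from 55.7 ± 8.79 to 8.82 ± 1.56 TPM, and -2.53 ± 0.21 on the log2(TPM + 1) scale (limma adjusted p = 0.00128).

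Cebpe, the factor of terminal granulocyte maturation, was at 11.9, 13.9 and 10.8 TPM in lung and at 0.415 and 2.01 TPM in tumor. The fall was 10.1-fold in mean TPM, from 12.2 ± 1.58 to 1.21 ± 1.13 TPM, and -2.67 ± 0.37 on the log2(TPM + 1) scale (limma adjusted p = 0.00342). The pseudocount shrinks the difference of so low a gene, which was -3.71 with a pseudocount of 0.01 TPM.

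Cebpa, which starts the granulocyte program, fell least among the C/EBP genes. It was at 38.4, 36.0 and 46.6 TPM in lung and at 11.8 and 22.8 TPM in tumor, with no overlap. The means of 40.3 ± 5.53 and 17.3 ± 7.78 TPM differ 2.34-fold, a difference of -1.24 ± 0.31 on the log2(TPM + 1) scale (limma adjusted p = 0.0209). The call ended when any lung library was left out (adjusted p = 0.0507, adjusted p = 0.0501 and adjusted p = 0.0619 without lung replicates 1, 2 and 3) and without tumor replicate 2, where the difference was -0.79 (adjusted p = 0.0638).

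Because a ratio within a library does not depend on how the library is scaled, the makeup of the C/EBP family was also compared as shares of its summed TPM. Cebpb held 90.8%, 91.1% and 90.5% of that sum in lung and 82.6% and 86.2% in tumor. Cebpa held 3.54%, 2.78% and 4.03% in lung and 9.25% and 9.65% in tumor, and Cebpe 1.09%, 1.07% and 0.933% against 0.326% and 0.851%. The share of Cebpa was higher in both tumor libraries than in any lung library, and those of Cebpb and Cebpe were lower. Each of these 3 differences had p = 0.1 in a two-sided exact permutation test, the smallest that the 10 splits of 3 against 2 libraries allow (adjusted p = 0.133 over the 4 shares). Such separation is common here. The ratio of 2 genes within a library did not overlap for 79.2% of all pairs of tested genes above 0 in every library. The share of Cebpd, at 4.55%, 5.08% and 4.50% in lung and 7.80% and 3.27% in tumor, overlapped (exact permutation p = 0.8).

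**Figure D2:**
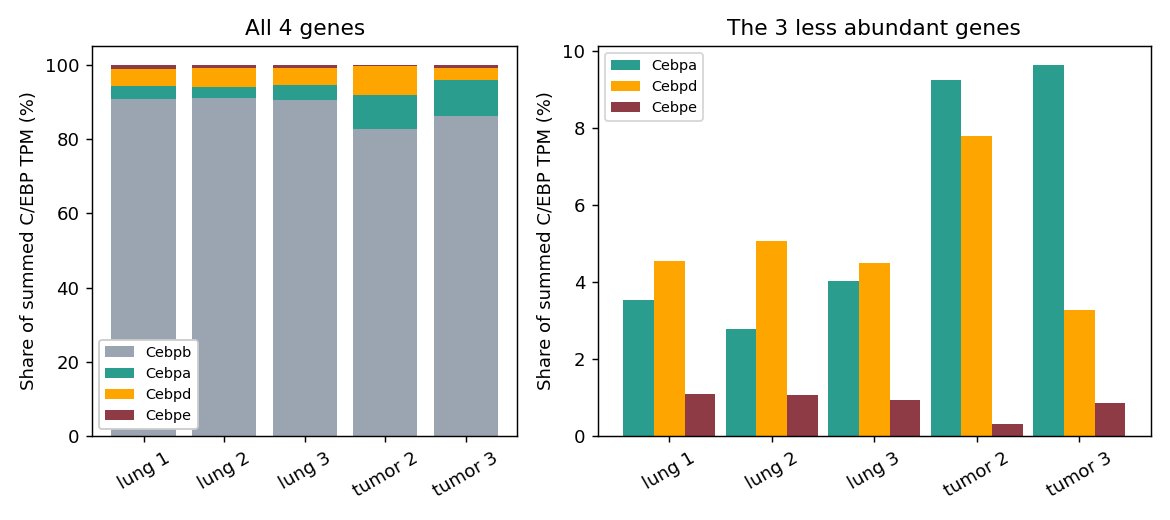
Share of each C/EBP gene in the summed TPM of the 4 genes, in percent, for each library, with all 4 genes stacked on the left and the 3 less abundant ones side by side on the right. The Cebpa bars are at 9.25% and 9.65% in tumor and at 2.78% to 4.03% in lung.

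Spi1 had the largest difference of the 7 tested factor genes on the log2(TPM + 1) scale. PU.1, its product, is required for all myeloid cells and activates integrin, Fc receptor and NADPH oxidase genes. Spi1 was at 564, 648 and 557 TPM in lung and at 24.3 and 71.3 TPM in tumor. It was second to Cebpb in lung, below both Cebpb and Runx1 in tumor, and the tissues did not overlap. The means were 589.6 ± 50.7 and 47.8 ± 33.2 TPM, 12.3-fold lower in tumor, with a difference of -3.78 ± 0.46 (log2(TPM + 1), limma adjusted p = 0.00247). The size rested on which tumor library was used, at -3.03 without tumor replicate 2 and -4.54 without tumor replicate 3, with adjusted p = 0.00767 and adjusted p = 0.00537. With 1 tumor library left, the spread in such a fit comes from the lung libraries, and the lone tumor library is assumed to vary like them.

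The pair that sets the choice between neutrophil and monocyte could be compared only in part, because Gfi1 was close to absent. Gfi1 was at 0.657, 1.99 and 0.413 TPM in lung and at 0.0132 and 0.164 TPM in tumor. All 5 values lay below 2 TPM, and the tumor values below the lung values. Its mean stayed under the 1 TPM filter, so it was not tested there. With no filter the difference was -0.82 ± 0.37 (log2(TPM + 1), limma adjusted p = 0.176). With pseudocounts of 0.1 and 0.01 TPM, chosen after seeing the data, it was -2.43 (adjusted p = 0.0887) and -3.70 (adjusted p = 0.0797), so neither passed.

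Irf8 was at 26.0, 13.0 and 23.0 TPM in lung and at 11.6 and 17.4 TPM in tumor. Tumor replicate 3 lay between lung replicates 2 and 3. The means of 20.7 ± 6.78 and 14.5 ± 4.14 TPM gave a difference of -0.46 ± 0.36 (log2(TPM + 1), 95% interval -1.38 to 0.46, limma adjusted p = 0.315), which did not pass. The interval includes both no change and a fall of more than 2-fold. The B cell and dendritic cell marker sums given above, both of cell types that express Irf8, were higher in lung, and their part in its lung level was not tested.

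Runx1, which acts with its partner CBF beta at the emergence of blood stem cells and in myeloid progenitors, did not differ beyond the spread of its libraries. It was at 49.4, 77.3 and 80.2 TPM in lung and at 68.4 and 72.3 TPM in tumor. Both tumor values lay within the range of the lung values. The means were 68.9 ± 17.0 and 70.4 ± 2.79 TPM, with a difference of 0.06 ± 0.26 (log2(TPM + 1), 95% interval -0.60 to 0.72, limma adjusted p = 0.850), whose sign changed without lung replicate 1 (-0.16). A change of 2-fold in either direction lies outside that interval. In tumor replicate 3 its level and that of Spi1 (71.3 TPM) were close.

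The order of the 8 genes by mean TPM was Cebpb, Spi1, Runx1, Cebpd, Cebpa, Irf8, Cebpe and Gfi1 in lung. Of these neighbours Runx1 and Cebpd overlapped, both at 49.4 TPM in lung replicate 1, as did Irf8 and Cebpe, and the others were apart in all lung libraries. In tumor the order was Cebpb, Runx1, Spi1, Cebpa, Irf8, Cebpd, Cebpe and Gfi1, and the values of Runx1 and Spi1, and of Cebpa and Irf8, overlapped between the tumor libraries.

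Ratios within a library were compared for all 28 pairs of the 8 genes. The groups did not overlap for 20 pairs. This was also so for 79.2% of all pairs of tested genes above 0 in every library, so such separation is the usual case here, and no pair could go below the exact permutation p = 0.1 of this design (smallest adjusted p = 0.156 over the 28 pairs). Spi1 went from above to below Runx1, with log2 ratios of 3.51, 3.07 and 2.80 in lung and -1.49 and -0.02 in tumor. Cebpb to Runx1 went from 4.32, 3.93 and 3.70 to 0.62 and 1.49. Cebpa to Cebpb was -4.68, -5.03 and -4.49 in lung and -3.16 in both tumor libraries, a difference of 1.58 (exact permutation p = 0.1, adjusted p = 0.156). The ratio of Cebpe to Spi1 overlapped, at -5.57, -5.54 and -5.69 in lung and -5.87 and -5.15 in tumor (exact permutation p = 0.8), as did that of Irf8 to Runx1 (-0.93, -2.57 and -1.80 against -2.57 and -2.05, exact permutation p = 0.5).

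Set against leukocyte transcripts instead of all transcripts, all genes shift by 1 amount, so that only their place relative to the markers and to other genes is informative. Each library was centred on the mean log2(TPM + 1) of its 24 pan-leukocyte markers, which was 8.55, 8.56 and 8.59 in lung and 4.43 and 5.86 in tumor, a difference of -3.42. Centring moved the median of all genes to 3.44, and 85.2% of all genes tested were then higher and 0.616% lower. Of the 7 tested factor genes 3 were higher, none was lower and 4 did not pass, a smaller share of higher calls than among all genes. Runx1 was higher by 3.48 ± 0.62, Irf8 by 2.96 ± 0.67 and Cebpa by 2.18 ± 0.65 (limma adjusted p = 5.47e-08, adjusted p = 2.03e-05 and adjusted p = 0.00124). In a centred fit all genes of a library carry the same offset, while limma pools their spread as if the genes were independent. The p-values on this scale therefore treat the spread as better known than so few libraries warrant. Neither they nor the SEs measure the spread of single genes, and an SE can be wider than the gene's own values are apart. Relative to the leukocyte mean, Runx1 was at -2.89, -2.27 and -2.25 in lung and at 1.68 and 0.33 in tumor. The difference of Runx1 was close to the shift of the median gene.

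Spi1, Cebpb, Cebpe and Cebpd did not pass on the leukocyte scale. There Spi1 differed by -0.37 ± 0.58, Cebpb by 0.56 ± 0.55, Cebpe by 0.75 ± 0.74 and Cebpd by 0.89 ± 0.66. Their adjusted p-values by limma were 0.549, 0.330, 0.328 and 0.190. Spi1 was at 0.60, 0.78 and 0.53 above the leukocyte mean in lung and at 0.23 and 0.31 above it in tumor. Its tumor values were thus below all lung values, and its SE of 0.58 is far wider than their spread. The tumor values of Cebpb (1.40, 1.64 and 1.44 in lung, 2.30 and 1.81 in tumor) were above all lung values. So were those of Cebpe (-4.86, -4.67 and -5.03 against -3.93 and -4.27), while Cebpd overlapped. How many of all genes were apart on this scale was not counted. Centring on the 14 neutrophil markers gave the same 3 calls, at 4.18 for Runx1, 3.66 for Irf8 and 2.88 for Cebpa, where 89.8% of all genes were higher and 0.134% lower, and Spi1 was at 0.33.

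**Figure D3:**
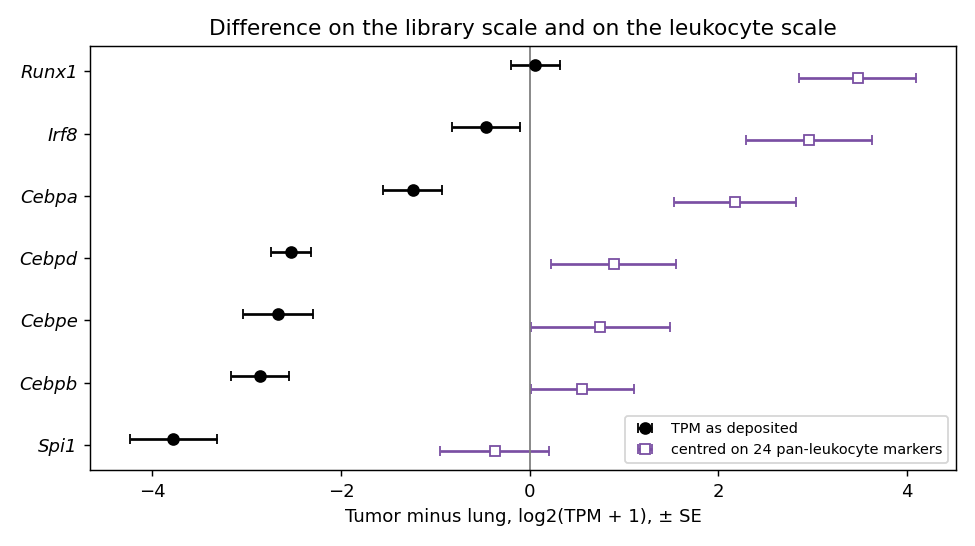
Difference between tumor and lung for the 7 tested factor genes on the log2(TPM + 1) scale with its SE, from TPM as deposited (filled circles) and after centring each library on 24 pan-leukocyte markers (open squares). On the deposited scale 5 genes lie below -1, and after centring Runx1, Irf8 and Cebpa lie above 2 while Spi1 is at -0.37.

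The 2 tumor libraries differed in their leukocyte marker levels. Tumor replicate 3 had 3.30 times the level of replicate 2 for the median pan-leukocyte marker, 3.66 times for the median neutrophil marker and 2.31 times for the median monocyte and macrophage marker. The median epithelial marker was at 1.03 times and the median of 14473 tested genes at 0.987 times, with 5th and 95th percentiles of 0.530 and 3.67. The median fibroblast marker was at 0.185 times and the median T and NK cell marker at 0.492 times. Spi1 (2.94 times) was among the medians of these 3 lists, Cebpe (4.84 times) was above them, and Cebpb (1.94 times), Cebpa (1.93 times) and Irf8 (1.51 times) were between those medians and that of the epithelial list. Runx1 was at 1.06 times and Cebpd at 0.777 times. All of these except Cebpe lay between the percentiles of all genes. The ratio of Gfi1, 12.4 times, rests on levels near 0. These are single libraries, and the ratios have no replicate check.

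**Figure D4:**
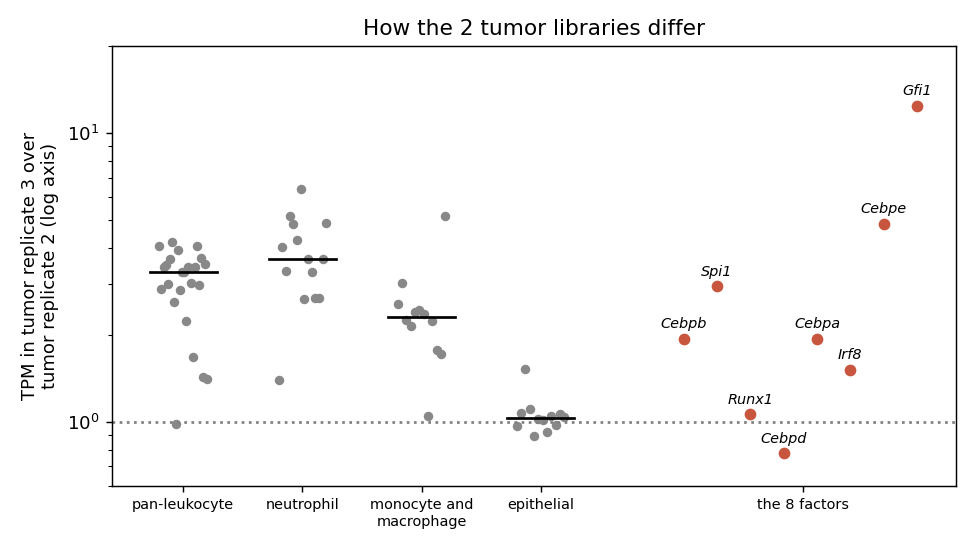
TPM in tumor replicate 3 divided by TPM in tumor replicate 2 on a log axis, for the genes of 4 marker lists (grey, with a line at each median) and for the 8 factor genes (red). Spi1 is at 2.94, Runx1 at 1.06 and Cebpd at 0.777, and the median pan-leukocyte marker at 3.30.

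Partners and regulators of the factors were split. Of 17 genes 16 were tested, 5 were higher and 7 lower in tumor, with a median difference of -0.07. The higher ones were Cbfb, the partner of RUNX1 (33.4 to 53.7 TPM, 0.67 ± 0.18), the GFI1 corepressor enzyme gene Kdm1a (13.6 to 32.7 TPM), the histone deacetylase genes Hdac2 (5.55 to 40.1 TPM, 2.68 ± 0.27) and Hdac3 (10.2 to 30.5 TPM), and Zfpm1, which encodes the GATA cofactor FOG1. Trib1, whose product targets C/EBP alpha for degradation, was at 199.5, 244 and 229 TPM in lung and at 29.0 and 48.5 TPM in tumor (-2.54 ± 0.26, limma adjusted p = 0.00175). Cebpz, a transcription activator named for CCAAT binding, fell from 38.1 to 15.7 TPM. Without tumor replicate 2, 3 of these genes were higher and 3 lower, where 20.3% of all genes were higher and 17.7% lower. Centred on pan-leukocyte markers 15 were higher and none lower, with a median of 3.35, where 85.2% of all genes tested were higher.

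Most paralogs of PU.1, RUNX1, GFI1 and IRF8 fell, and 2 that rose, Elf3 and Ehf, are known from epithelia. Of 22 genes in the ETS, RUNX, GFI and IRF families 21 were tested, 14 were lower and 3 higher, and the median difference was -1.99. Irf1 (167 to 32.3 TPM, -2.35 ± 0.19) and Irf7 (86.4 to 13.5 TPM, -2.61 ± 0.22), both of the interferon response, were among the falls. Among the genes that rose were Elf3 (0.878 to 47.4 TPM, 4.75 ± 0.37) and Ehf (0.662 to 3.91 TPM, 1.56 ± 0.39). By limma the adjusted p of the named paralogs was between 0.00125 and 0.0203. The epithelial marker sums given above rose with them, and their part was not tested. After centring on pan-leukocyte markers 12 of the family genes were higher and none lower, where 85.2% of all genes tested were higher.

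Other hematopoietic transcription factors were mostly lower as well. Of 39 genes 37 were tested, 22 were lower and 8 higher, and the median difference was -1.36. Ikzf1, a lymphoid and myeloid zinc finger gene, was at 88.9, 88.1 and 98.2 TPM in lung and at 5.98 and 8.56 TPM in tumor (-3.50 ± 0.19, limma adjusted p = 0.000901). Ikzf3, its B cell relative, fell from 20.5 to 0.231 TPM and the immediate early gene Nr4a1 from 329 to 35.3 TPM. Maf, a factor of tissue macrophages, rose from 1.87 to 23.9 TPM (3.14 ± 0.26). The macrophage marker sum of tumor replicate 2 lay within the lung range and that of replicate 3 above it. Without tumor replicate 2 the median difference of the 37 tested genes was -1.07. After centring on pan-leukocyte markers 24 of them were higher and none lower, where 85.2% of all genes tested were higher.

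Genes that the factors are known to activate or repress were counted next, from lists drawn from textbook targets. Binding was not measured here. The 6 granule genes that depend on C/EBP epsilon all fell, with a median of -5.68. Chil3 was at 679, 669 and 694 TPM in lung and at 5.17 and 20.7 TPM in tumor (-5.88 ± 0.54, limma adjusted p = 0.00150), and Lcn2 went from 1217 to 73.9 TPM. Centred on pan-leukocyte markers, 5 of the 6 were still lower and none was higher, with a median of -2.26. On that scale 0.616% of all genes tested were lower and 85.2% higher. Of the 14 neutrophil markers 7 were lower there too and 1 was higher, with a median of -0.92. Centred on neutrophil markers, 3 of the 6 were lower, where 0.134% of all genes tested were lower. Mmp8 is both among the 6 and among those markers. Cebpe itself differed by 0.75 on the leukocyte scale and did not pass. That value depends on the pseudocount, as Cebpe was at 0.415 and 2.01 TPM in tumor. Before centring, its difference was -2.67 with a pseudocount of 1 TPM and -3.71 with 0.01 TPM. The marker mean differed by -3.42 with 1 TPM, and centring with a smaller pseudocount was not run.

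Of 8 early targets of C/EBP alpha, PU.1 and RUNX1, 5 were tested and all 5 fell, with a median of -3.02. They were the receptor genes Csf3r (2305 to 117 TPM), Csf1r, Csf2ra (549 to 65.8 TPM) and Il6ra (93.7 to 9.67 TPM) and the protease gene Prtn3 (4.96 to 0.373 TPM). Mpo, Elane and Ctsg, granule genes of promyelocytes, stayed under the 1 TPM filter, at means of 0.768, 1.02 and 0.314 TPM in lung, and Ctsg was listed at 0 in both tumor libraries. Centred on pan-leukocyte markers 1 of the 5 was lower, none was higher and the median was 0.40. On that scale 0.616% of all genes tested were lower and 85.2% higher. Centred on neutrophil markers, which include Csf3r, 2 were higher and none lower, where 89.8% of all genes tested were higher.

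PU.1 targets fell for 7 of 9 genes, with a median of -3.05, and none rose. Ncf4, an NADPH oxidase subunit gene, was at 264, 255 and 274 TPM in lung and at 22.1 and 40.1 TPM in tumor (-3.11 ± 0.27, limma adjusted p = 0.00142). The integrin gene Itgb2 went from 636 to 51.0 TPM and Itgam from 389.9 to 51.5 TPM. The Fc receptor gene Fcgr1 (8.58 and 11.3 TPM) and Tlr4 (32.9 and 16.6 TPM) did not pass. Centred on pan-leukocyte markers 3 were higher and none lower, with a median of 0.37, beside the -0.37 of Spi1 itself. Of all genes tested 85.2% were higher on that scale. Itgb2 is also one of the markers used for centring.

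Targets of the other factors were mixed. Of 11 tested inflammatory targets of C/EBP beta and C/EBP delta, 5 fell and 2 rose, with a median of -1.13. S100a9 went from 21458 to 1144 TPM and Hp, which encodes haptoglobin, from 1499 to 57.8 TPM, while Arg1 rose from 1.67 to 206 TPM and Csf3, which encodes the granulocyte colony-stimulating factor, from 0.251 to 7.07 TPM. Of 5 tested IRF8 targets 3 fell, among them Cst3 and Cybb, and Cybb is on the list of PU.1 targets too. Cst3, which encodes cystatin C, went from 889 to 398 TPM (-1.15 ± 0.18), and Klf4, a monocyte factor gene, was at 54.5 and 51.7 TPM (limma adjusted p = 0.716). Of 6 tested genes that GFI1 represses 4 fell and 1 rose. Csf1r, among the falls, is on the list of early targets too. Gfi1 itself was low in both tissues, at 0.413 to 1.99 TPM in lung and 0.0132 and 0.164 TPM in tumor. Id2 fell from 80.5 to 26.0 TPM and Csf1 from 148 to 38.0 TPM, and Meis1 rose from 1.53 to 8.96 TPM. Without tumor replicate 2, 2 of the 6 were lower and none higher. Centred on pan-leukocyte markers, 7 of the 11, 3 of the 5 and 5 of the 6 were higher, and 3 of the 11 were lower. On that scale 85.2% of all genes tested were higher and 0.616% lower.

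**Figure D5:**
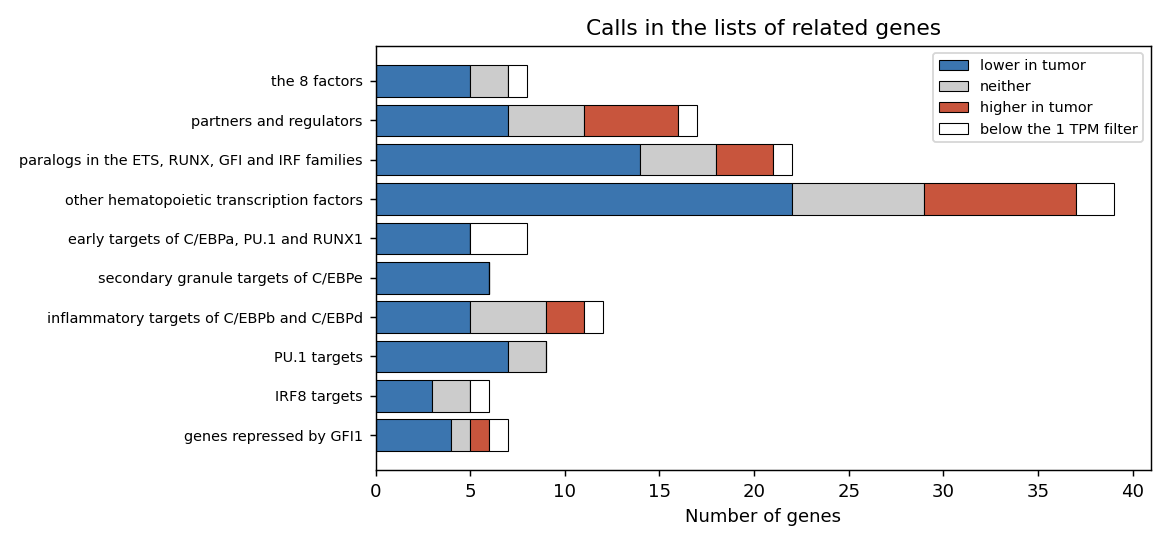
Number of genes lower, higher or neither in tumor by limma on deposited TPM, and number below the 1 TPM filter, for the 8 factors and 9 lists of related genes. All tested C/EBP epsilon targets and early targets are in the lower class, and partners and regulators are split into 7 lower and 5 higher.

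The genes whose levels followed each factor most closely were found by distance between the 5 log2(TPM + 1) values, each centred on its own mean, over the 9151 tested genes of at least 5 TPM, leaving out predicted genes, clones and small RNA genes by their names (9152 for Gfi1). For Spi1 they were Abtb1 (218, 239 and 208 TPM in lung, 8.47 and 26.9 TPM in tumor, distance 0.0602) and Arhgap9, a GTPase-activating protein gene (distance 0.0940). For Cebpb they were Sirpb1c (distance 0.0972) and Ucp2, a mitochondrial carrier gene at 1154 to 1373 TPM in lung and 116 and 235 TPM in tumor (distance 0.102). For Cebpa they were the paracaspase gene Malt1 (distance 0.0571) and Fbxl20 (distance 0.171), and for Cebpe the leukotriene B4 receptor gene Ltb4r1 (distance 0.135) and Amz1 (distance 0.157). Cebpd had no gene as close, with Trim11 at 0.238 and Fmo5 at 0.271. Irf8 was followed by Gas2l3 (distance 0.212) and Ctnnd1, which encodes p120 catenin (distance 0.222), and Runx1 by Manea (distance 0.109) and the splicing factor gene Tra2a (distance 0.154). Gfi1 had Ccdc28a (distance 0.212) and Pmvk (distance 0.293). With 5 libraries that share 2 tissues, such likeness is a description.

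The authors' deposited table gives its own test of the same libraries. In the authors' deposited table none of the 8 genes had an adjusted p under 0.05, a limit that 0.638% of its 34956 rows with a value met. The adjusted p in the authors' deposited table was 0.0598 for Spi1, 0.0663 for Cebpb, 0.0854 for Cebpe, 0.116 for Cebpd and 0.273 for Cebpa, and 0.394 to 0.929 for Gfi1, Irf8 and Runx1.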

How the data were processed

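RNA of 5 libraries labelled PMN-MDSC was analysed. The deposited values are TPM, a share that keeps no depth, made by the authors with Salmon 0.9.1 and GENCODE mouse M24 transcripts, as the series' design text states. A fall in one gene's TPM can therefore follow from a rise elsewhere, and no counting error or detection floor can be given. The deposited p-values of the authors' own comparison were copied, not used in any test. Of 55276 rows, 26 held spreadsheet dates in place of symbols and were dropped, with 0.0650% to 0.0826% of the TPM.

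Differences were tested with limma 3.58.1 (R 4.3.3, intensity trend, two-sided) on log2(TPM + 1) for the 16387 genes whose mean reached 1 TPM, and calls used the 0.05 and 1.5-fold limits of the design text. The step was tested on simulated data with independent noise for each gene, without the shared leukocyte difference of the tumor libraries. Tissue labels gave the groups, and titles the replicate numbers.

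The 8 genes and the 19 other lists (10 of them markers) were chosen with earlier results of these data known. All 8 were named, as were up to 4 genes with the smallest p in each list without markers and the 2 nearest genes of each factor. Other list genes (Cbfb, Kdm1a, Zfpm1, Ehf, Mpo, Elane, Ctsg, Fcgr1, Tlr4 and Klf4) were named after their values were seen. Promoters are from RefSeq (GRCm38.p6). Proteins were not analysed here. A few list genes are counted but not reported by name here. Alternatives were 2 other pseudocounts, no filter and a 5 TPM filter, 4 rescalings, 2 other limma settings, fold limits of 2 and none, a replicate block and leaving out each library.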

Additional observations from a re-analysis of the deposited data

How the results depend on the processing

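Centring on markers shifts all genes of a library alike, so signs and calls of the factor genes moved with those of most genes. Centred on pan-leukocyte markers, 13958 genes were higher and 101 lower, with 3 factor genes higher and 0 lower. Centred on neutrophil markers, 14719 genes were higher and 22 lower, with 3 and 0 factor genes. The differences on these scales, leukocyte then neutrophil, were 2.18 and 2.88 for Cebpa, 0.56 and 1.26 for Cebpb, 0.89 and 1.59 for Cebpd, 0.75 and 1.45 for Cebpe, and 2.96 and 3.66 for Irf8. Spi1 was at -0.37 and 0.33, and Runx1 at 3.48 and 4.18. Runx1 also changed sign, at -0.12 with scaling by the median of log ratios and at -0.16 without lung replicate 1. The replicate block repeats that -0.16, because lung replicate 1 drops out there too. Runx1 ranged from -0.16 to 0.18 when libraries were left out. It did not pass in any of these. Each fit without a tumor library takes its spread from the lung libraries. Leaving out single libraries gave 3314 to 4817 genes higher, 2900 to 4134 lower, 4 to 5 factor genes lower and 0 higher, where the lowest counts of genes came without tumor replicate 2. The difference in the Cebpd share of the C/EBP sum was -1.44 to 3.09 percentage points when libraries were left out, and turned below 0 without tumor replicate 2. Differences in the other shares kept their sign.

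Lung and tumor samples share the title numbers 2 and 3, and nothing says that a number marks a shared animal or day. Deviations from the group means correlated by 0.00343 for number 2 and by 0.0833 for number 3. The deviations of 2 tumor libraries mirror each other, so the unmatched pairs only reverse the sign (-0.00343 and -0.0833). These values therefore cannot tell whether a number marks a pair. With the number as a replicate block 3662 genes were higher and 3449 lower, and the same 5 factor genes were lower, with adjusted p-values by limma of 0.0297 to 0.0445.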
